A study of Caenorhabditis elegans with 15 samples.

Results

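The 9 genes described here encode apical matrix proteins of the precuticle, known in the *C. elegans* embryo as the sheath. They are *noah-1*, *noah-2*, *fbn-1*, *let-653*, *lpr-1*, *lpr-3*, *let-4*, *egg-6* and *sym-1*, chosen by name, and each matched 1 gene ID among the 46911 genes of the count table. Epidermal cells secrete this layer before they make the first cuticle, and it lines the body surface and the lumens of tubes such as the excretory duct. It holds zona pellucida (ZP) domain proteins, lipocalins and proteins with extracellular leucine-rich repeats, which help the embryo to elongate and keep narrow tubes intact, and it is shed or replaced as collagenous cuticle is laid down. Of the 9 genes, *noah-1*, *noah-2*, *fbn-1*, *lpr-3*, *let-4* and *egg-6* were among those that the study displayed as sheath genes on these same samples, so their direction in P37Stop is not independent evidence. The other 3, *let-653*, *lpr-1* and *sym-1*, were not among those genes. All 9 were chosen with earlier results of these data known.

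RNA was sequenced from whole L1 animals that had hatched from bleached adults and arrested without food, in 5 groups with 3 biological replicates each. S441L (*oj55*) and P183L (*hy21*) are missense alleles of *eff-1*, which encodes the fusogen that joins epidermal cells into syncytia, and their control, grown in parallel, is called WT batch 1. P37Stop, a CRISPR allele with 2 stop codons near the start of *eff-1*, was grown in a later experiment with its own control, WT batch 2. The comparisons ask how far precuticle transcripts differ between fusion-defective and WT L1 animals. Both missense alleles came from mutagenesis, which can leave other mutations in the strain, are described as probable partial rather than complete losses of function, and are listed in strains with the array jcIs1, which carries *rol-6(su1006)* and *unc-29(+)* beside *ajm-1::GFP*. P37Stop was made in animals with kuIs46 (*ajm-1::GFP* and *unc-119(+)*) and bqSi640, a *dpy-7*-driven fluorescent histone. WT is named as N2 for the experiment with the missense alleles.

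Each library had 35858225 to 47820216 counts. Levels are given as CPM, counts relative to the library total, scaled by TMM, which corrects for library size and composition over all 15 libraries. Levels are compared between genes only as TPM, a measure per transcript that also divides by the length of the exons. The *eff-1* transcript was at 18.4 ± 1.60 CPM in P37Stop and 27.0 ± 2.65 CPM in WT batch 2 (SD, n = 3), and its log2 fold change there was -0.52 (SE, the standard error, 0.12, adjusted p = 0.0104 by edgeR). In S441L and P183L it was 0.20 (adjusted p = 0.0159 by edgeR) and 0.15 (adjusted p = 0.0669), and a point mutation need not alter transcript level. Genes carried by the transgenes set some groups apart from others of the same description. Transcripts of *unc-119* were at 844 CPM in WT batch 2 and 1062 CPM in P37Stop, but at 28.1 CPM in WT batch 1. Those of *rol-6* were at 429 CPM in S441L and 1.66 CPM in P183L, though jcIs1 is listed for both strains, and at 0.522 CPM in WT batch 1. Those of *ajm-1* were at 4146 CPM in S441L and 751 CPM in WT batch 1, and at 2560 CPM in P37Stop and 2108 CPM in WT batch 2. S441L thus differed from its control in transcripts of genes on the array as well as in the allele. These cannot be told apart in the S441L changes below. Whether WT batch 2 carries bqSi640, present in the animals in which P37Stop was made, was not tested. The part of that transgene in the P37Stop changes was not tested either. Markers fixed by name for epidermis, body wall muscle, intestine, neurons and pharynx were detected in every group, and no gene of these lists was at 0 counts throughout a group. In RNA from whole animals, fewer cells of a type and less RNA per cell cannot be told apart.

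Most of the 9 transcripts were higher in P37Stop and all in P183L than in their own WT controls, while in S441L 4 were called higher, 1 was called lower and 4 were not called. Relative to WT batch 2, 7 of the 9 genes rose in P37Stop, by 4.16-fold to 5.95-fold, and *let-653* and *egg-6* did not pass the test. The genes that rose in S441L were *noah-2*, *lpr-3*, *let-4* and *egg-6*, by 1.55-fold to 2.14-fold, while *let-653* fell to 0.612 of the WT batch 1 level. In P183L all 9 rose, by 8.85-fold (*let-653*) to 48.5-fold (*fbn-1*). The sum over the 9 genes was 67.3 ± 15.5 CPM in WT batch 2, 189 ± 2.52 in WT batch 1, 249 ± 3.00 in S441L, 320 ± 82.4 in P37Stop and 5204 ± 7.23 in P183L (SD, n = 3). As a share of all counts, this was 0.00503 to 0.00783% in WT batch 2 libraries and 0.623 to 0.627% in P183L libraries.

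A gene was called higher or lower where its log2 fold change lay outside -0.5 to 0.5 and its p, adjusted by the Benjamini-Hochberg method over all genes tested, was below 0.05 in the quasi-likelihood test of edgeR. All 9 genes passed the filter on low counts in every comparison. Of all genes tested in P37Stop, 12.7% were called higher and 5.9% lower, and the log2 fold change had a median of 2.32 over the 9 genes and of 0.02 over all genes. In S441L, 24.2% of genes were called higher and 15.8% lower, with medians of 0.49 and 0.03. In P183L, 40.2% were called higher and 40.2% lower, with medians of 4.69 and 0.02, so a called increase was itself common in that mutant. For 7 of the 9 genes all P37Stop libraries lay above all WT batch 2 libraries, where 21.7% of all genes tested did. In S441L the libraries lay above those of WT batch 1 without overlap for 7 genes and below for 1, where 34.5% of all genes lay above. In P183L they lay above for all 9 genes, where 47.2% of all genes did. When total counts replaced TMM as the scaling, the median over all genes moved to 0.24 in P37Stop, 0.21 in S441L and 0.53 in P183L, and the share of calls that were higher moved from 68.2% to 89.7%, from 60.5% to 75.2% and from 50.0% to 60.1%. The calls of the 9 genes with TMM all stood with total counts, and *egg-6* in P37Stop and *fbn-1* and *lpr-1* in S441L were added.

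**Figure D1:**
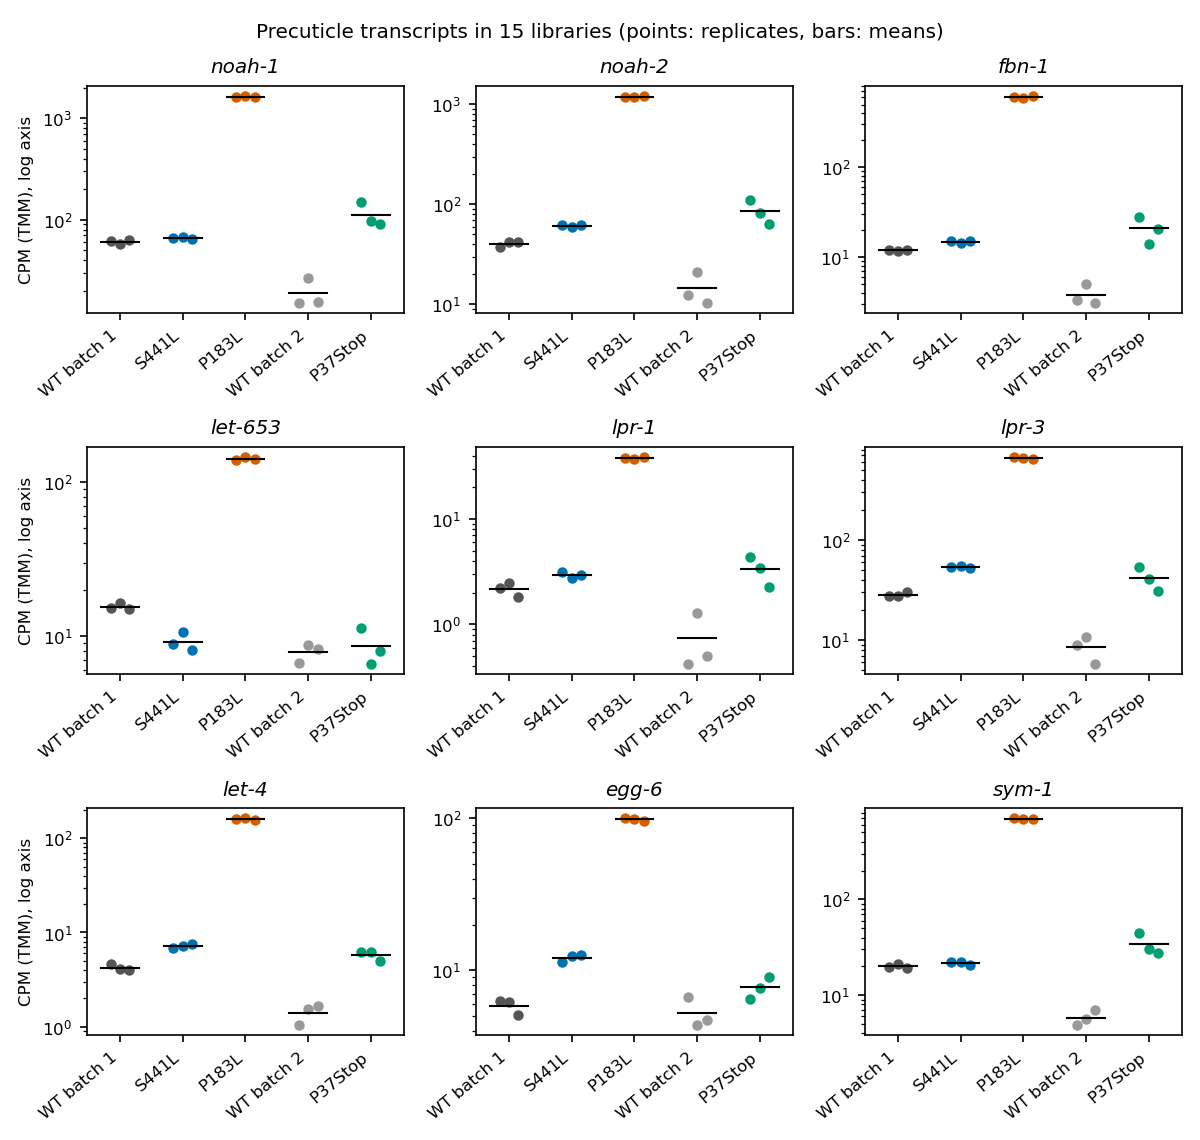
TMM-normalized CPM of the 9 precuticle genes (log axis, a separate range for each gene) in the 5 groups, with a point for each of 3 replicates and a bar at the mean. P183L libraries lie above all others for every gene, from 37.4 CPM for *lpr-1* to 1638 CPM for *noah-1*, and WT batch 2 has the lowest mean for every gene.

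The ZP-domain proteins form fibrous layers of the matrix. *noah-1* (WBGene00016422) and *noah-2* (WBGene00009926), relatives of *Drosophila* NompA, are needed for embryonic elongation and for the strength of the sheath. *noah-1* lies on the minus strand of chromosome I from 5874416 to 5878958 on WBcel235, the assembly also named ce11, and *noah-2* on the plus strand of chromosome IV from 14091254 to 14096626. The *noah-1* transcript was at 15.3, 26.9 and 15.5 CPM in the WT batch 2 libraries and at 148, 97.7 and 89.9 CPM in the P37Stop libraries. The groups were well separated, although replicate 2 of the WT and replicate 1 of the mutant were each far above the other libraries of their group. This was a log2 fold change of 2.56 (SE 0.24, adjusted p = 5.09e-05 by edgeR). In WT batch 1 the *noah-1* libraries were at 61.9, 57.8 and 63.3 CPM and in S441L at 65.7, 67.8 and 65.2 CPM, narrowly apart. That difference had a log2 fold change of 0.16 (SE 0.048, adjusted p = 0.0108 by edgeR) and so lay below the limit of 0.5. In P183L the same transcript reached 1628, 1638 and 1620 CPM, a log2 fold change of 4.69 (SE 0.051).

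*noah-2* followed the same order of groups, with a clearer difference in S441L. Its levels were 12.5, 20.9 and 10.4 CPM in WT batch 2 and 110, 82.8 and 63.2 CPM in P37Stop, a log2 fold change of 2.57 (SE 0.26, adjusted p = 6.77e-05 by edgeR). In WT batch 1 they were 37.3, 42.1 and 41.8 CPM and in S441L 61.9, 59.1 and 61.8 CPM, with every S441L library above every WT library. The S441L log2 fold change was 0.64 (SE 0.052, adjusted p = 2.08e-07 by edgeR). P183L libraries held 1170, 1175 and 1202 CPM of *noah-2*, a log2 fold change of 4.82 (SE 0.054). Per exon length, *noah-2* and *noah-1* were the most abundant of the 9 transcripts in P183L, at 905 ± 16.1 and 843 ± 6.71 TPM (SD, n = 3), which placed them at ranks 139 and 155 of all genes. In WT batch 1 they were at 17.5 ± 0.913 and 17.9 ± 1.34 TPM, ranks 6074 and 5992.

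*fbn-1* (WBGene00022816; chromosome III, 7625386 to 7641078, plus strand) encodes a large fibrillin-like ZP protein that resists the mechanical pull of the pharynx on the embryonic epidermis. Its 25 merged exons share 45 bases with the antisense gene *upp-1*, and whether counting used strand is not stated, so some of its counts could come from that gene. *upp-1* had a mean of 5290 counts per library, and *fbn-1* had 112 to 208 in WT batch 2 and 360 to 473 in WT batch 1. The part of *upp-1* in the *fbn-1* values was not tested. *fbn-1* had the largest change of the 9 genes in P183L, from 12.1, 11.8 and 12 CPM in WT batch 1 to 601, 585 and 617 CPM. In P37Stop it was at 28.1, 14 and 20.8 CPM, against 3.34, 4.98 and 3.13 CPM in WT batch 2. These groups did not overlap, and the log2 fold change was 2.48 (SE 0.27, adjusted p = 0.000116 by edgeR). S441L libraries, at 15.2, 14.5 and 15 CPM, lay above WT batch 1 by a log2 fold change of 0.36 (SE 0.069, adjusted p = 0.000545 by edgeR), below the limit of 0.5. With total counts as the scaling that value was 0.55 (adjusted p = 3.58e-05 by edgeR), which passed, with the median of all genes at 0.21.

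*let-653* (WBGene00002827; chromosome IV, 11885613 to 11891082, plus strand) encodes a ZP protein that lines the excretory duct lumen and keeps it open, and it departed from the other ZP genes. Its levels were 6.70, 8.81 and 8.22 CPM in WT batch 2 and 11.3, 6.62 and 8.04 CPM in P37Stop. The groups overlapped, and the log2 fold change of 0.15 (SE 0.22, adjusted p = 0.660 by edgeR) became -0.09 without P37Stop replicate 1, the library with the highest level. In S441L *let-653* fell, from 15.2, 16.4 and 14.9 CPM in WT batch 1 to 8.87, 10.6 and 8.08 CPM, without overlap. In log2 units the change was -0.71 (SE 0.10, adjusted p = 3.89e-05 by edgeR). In P183L it rose to 139, 145 and 142 CPM, a log2 fold change of 3.15 (SE 0.048), the smallest of the 9.

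Lipocalins are small secreted carriers of lipophilic molecules. *lpr-1* (WBGene00002393; chromosome I, 557375 to 561671, plus strand) is required for the integrity of the excretory tubes, and *lpr-3* (WBGene00012261; chromosome X, 11057401 to 11059793, plus strand) is needed for a continuous sheath, for tube integrity and for cuticle assembly. *lpr-1* had the lowest counts of the 9, down to 17 reads in a library, and its precision is accordingly lower. It was at 0.423, 1.29 and 0.503 CPM in WT batch 2 and at 4.4, 3.44 and 2.28 CPM in P37Stop, separated, although WT replicate 2 lay far above the other WT libraries. The log2 fold change was 2.20 (SE 0.49, adjusted p = 0.00688 by edgeR), and with 1 library left out it ranged from 1.92 to 2.89, the latter without WT batch 2 replicate 2. In S441L *lpr-1* was at 3.13, 2.73 and 2.95 CPM against 2.20, 2.46 and 1.82 CPM in WT batch 1. The log2 fold change of 0.49 (SE 0.17, adjusted p = 0.0195 by edgeR) fell just short of the limit, and the call turned with the setting: it was 0.51 with limma voom, 0.68 with total counts, and 0.37 to 0.58 with 1 library left out. P183L libraries were at 38.1, 37.4 and 38.7 CPM, a log2 fold change of 4.10 (SE 0.090).

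*lpr-3* was called higher in all 3 mutants. It rose from 9.04, 10.7 and 5.84 CPM in WT batch 2 to 53.8, 40.5 and 30.8 CPM in P37Stop, a log2 fold change of 2.32 (SE 0.24, adjusted p = 7.52e-05 by edgeR). It rose from 27.5, 27.4 and 30.0 CPM in WT batch 1 to 54.2, 55.2 and 52.4 CPM in S441L (log2 fold change 0.97, SE 0.051, adjusted p = 2.61e-09 by edgeR). In neither comparison did the groups overlap, and the S441L and P37Stop libraries covered overlapping ranges. P183L libraries were at 670, 656 and 652 CPM, a log2 fold change of 4.49 (SE 0.050). At 627 ± 6.42 TPM (SD, n = 3), *lpr-3* ranked at 223 of all genes in P183L.

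The leucine-rich repeat proteins are found at or near apical surfaces. *let-4* (WBGene00002282; chromosome X, 14577935 to 14580923, plus strand) maintains epithelial junctions and the precuticle. It was at 1.05, 1.53 and 1.65 CPM in WT batch 2 and at 6.13, 6.14 and 5.01 CPM in P37Stop, where its replicates were the closest of the 9 genes. Its log2 fold change was 2.06 (SE 0.29, adjusted p = 0.000505 by edgeR). It also rose in S441L, from 4.57, 4.13 and 3.98 CPM to 6.81, 7.16 and 7.47 CPM, with a log2 fold change of 0.80 (SE 0.12, adjusted p = 8.57e-05 by edgeR). P183L libraries held 161, 163 and 158 CPM, a log2 fold change of 5.20 (SE 0.058).

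*sym-1* (WBGene00006366; chromosome X, 14581622 to 14584378, plus strand) begins 698 bases downstream of *let-4* on the same strand and encodes a secreted protein that helps attach muscle to the epidermis and cuticle. Its exons share 24 bases with the antisense gene *C44H4.4*. *sym-1* rose in P37Stop as much as the *noah* genes, from 4.93, 5.65 and 6.93 CPM to 44.5, 30.0 and 27.3 CPM (log2 fold change 2.57, SE 0.21, adjusted p = 2.36e-05 by edgeR). Unlike its neighbour, it was not called in S441L, where it was at 22.3, 22.3 and 20.7 CPM against 19.5, 21.1 and 19.4 CPM in WT batch 1, overlapping ranges. Its log2 fold change was 0.17 (SE 0.059, adjusted p = 0.0251 by edgeR). In P183L it reached 702, 698 and 684 CPM, a log2 fold change of 5.07 (SE 0.048).

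*egg-6* (WBGene00010621; chromosome I, 8676666 to 8681325, minus strand), which is needed for excretory duct and pore integrity, was called in S441L and P183L. It had the largest change of the 9 genes in S441L, from 6.27, 6.22 and 5.09 CPM to 11.3, 12.5 and 12.6 CPM (log2 fold change 1.10, SE 0.11, adjusted p = 1.63e-06 by edgeR). In P37Stop it was at 6.46, 7.62 and 9.11 CPM and in WT batch 2 at 6.73, 4.4 and 4.72 CPM, overlapping because of WT batch 2 replicate 1. The log2 fold change of 0.58 (SE 0.23, adjusted p = 0.0817 by edgeR) became a call without that library (0.78, adjusted p = 0.0448 by edgeR) and with total counts (0.80, adjusted p = 0.0187). The P37Stop and S441L effects on *egg-6* differed by -0.51 (adjusted p = 0.0594 by edgeR), which did not pass. P183L libraries were at 99.9, 99.1 and 95.4 CPM, a log2 fold change of 4.02 (SE 0.071).

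**Figure D2:**
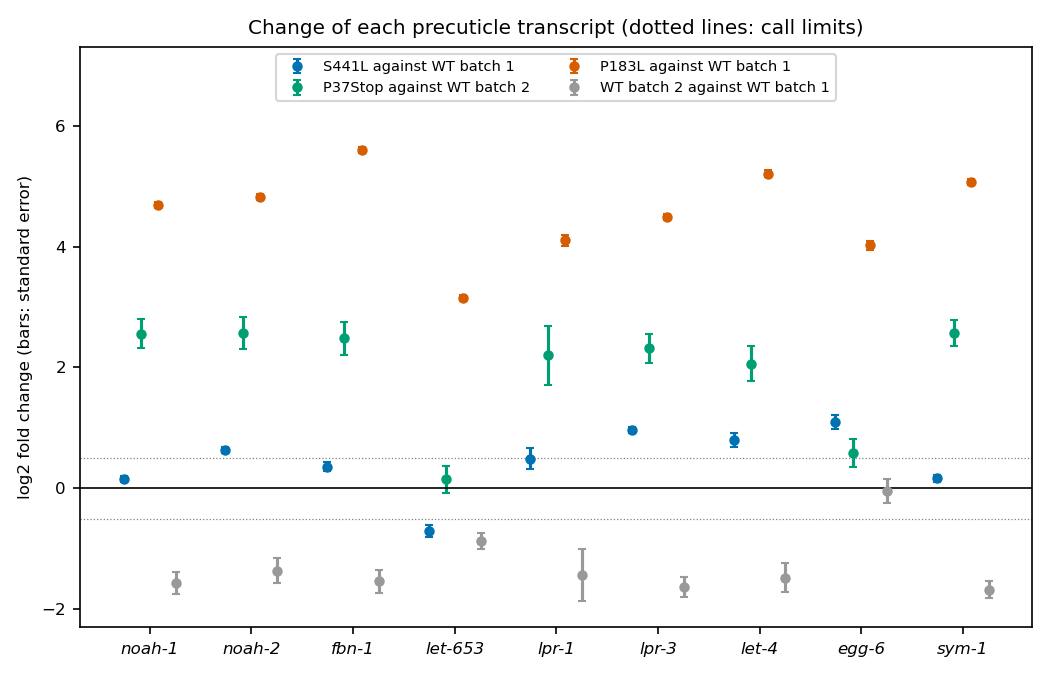
Log2 fold change of each precuticle gene in the 3 mutants against their own WT and in WT batch 2 against WT batch 1, with bars of 1 standard error from edgeR and dotted lines at the limits of 0.5 and -0.5. P183L lies between 3.15 and 5.60 for every gene, P37Stop lies above 2 for 7 genes, and WT batch 2 lies between -0.87 and -1.68 against WT batch 1 for 8 genes.

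The WT groups were not alike in these transcripts. Relative to WT batch 1, 8 of the 9 genes were lower in WT batch 2, where 14.3% of all genes tested were, and *egg-6* had a log2 fold change of -0.05 (SE 0.20, adjusted p = 0.852 by edgeR). The median over the 9 genes was -1.48 and that over all genes 0.00. *sym-1* differed most, 3.20-fold lower in WT batch 2 (log2 fold change -1.68, SE 0.14, adjusted p = 1.42e-06 by edgeR), and *lpr-3* was 3.09-fold lower. *let-653* was 1.82-fold lower. The call of *lpr-1* (log2 fold change -1.43) was lost without WT batch 1 replicate 2 (adjusted p = 0.0578 by edgeR), and its value ranged from -2.14 without WT batch 2 replicate 2 to -1.15 without WT batch 2 replicate 1. Both groups are labelled WT but come from different experiments. They also differ in *unc-119* and *ajm-1*, the genes listed for kuIs46, and both were higher in WT batch 2. Its mean *ajm-1* level was 2108 CPM, against 751 CPM for the other WT group. Whether WT batch 2 carries kuIs46 was not tested. The experiment and a difference in strain cannot be told apart.

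Since the WT groups differed, the size of each mutant change depended on the control. Against WT batch 1, 5 genes were called higher in P37Stop, where 22.7% of all genes tested were, and 1 lower, where 14.7% were. The log2 fold changes fell to 0.90 for *noah-1*, 1.11 for *noah-2*, 0.83 for *fbn-1*, 0.59 for *lpr-3* and 0.79 for *sym-1*. Those of *lpr-1* (0.67, adjusted p = 0.0704 by edgeR), *let-4* (0.48, adjusted p = 0.0516) and *egg-6* (0.43, adjusted p = 0.0765) did not pass. *let-653*, which overlapped WT batch 2, lay below all WT batch 1 libraries (-0.82, adjusted p = 0.00444 by edgeR). With both WT groups as the control, *noah-1* and *noah-2* were the 2 genes of the 9 called higher in P37Stop, where 7.81% of all genes tested were. That fit had no term for the experiment, so the difference between the WT groups counted as spread within the control. A lost call there need not mean a smaller change. S441L showed the opposite shift. Against WT batch 2, 8 genes were called higher, where 20.9% of all genes were, the median of the 9 was 1.93, and *let-653* had 0.19 (adjusted p = 0.324 by edgeR). P183L kept all 9 calls with every control, at 4.16 (*let-653*) to 7.28 (*fbn-1*) against WT batch 2. Calls were common in this mutant, as 40.2% of all genes tested were called higher against WT batch 1. The share against WT batch 2 is not given here.

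**Figure D3:**
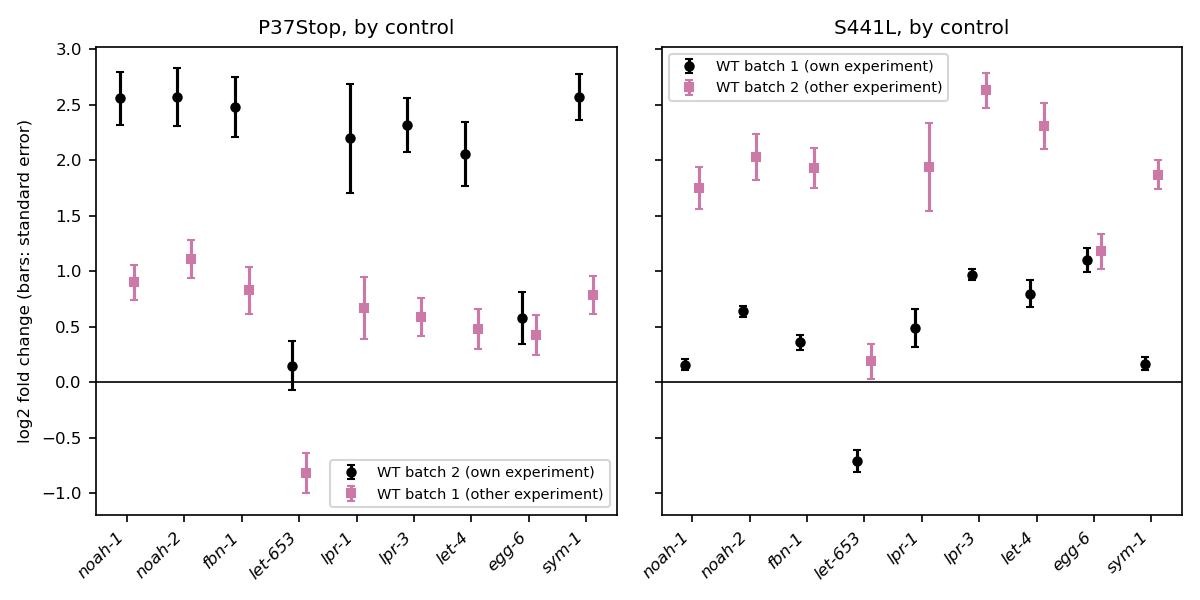
Log2 fold changes of the 9 precuticle genes in P37Stop (left) and S441L (right) with the WT of the same experiment (circles) and of the other experiment (squares), with bars of 1 standard error from edgeR. The P37Stop changes shrink to between -0.82 and 1.11 with WT batch 1, and the S441L changes grow to between 0.19 and 2.63 with WT batch 2.

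The order of the mean levels was WT batch 2, WT batch 1, S441L, P37Stop, P183L from lowest to highest for *noah-1*, *noah-2*, *fbn-1*, *lpr-1* and *sym-1*. For *lpr-3*, *let-4* and *egg-6*, P37Stop and S441L changed places, and for *let-653* the order was WT batch 2, P37Stop, S441L, WT batch 1, P183L. Neighbouring groups in these orders did not overlap for *noah-1*, *noah-2* and *let-4*. P37Stop and S441L libraries overlapped for *fbn-1*, *lpr-1*, *lpr-3* and *let-653*. WT batch 2 overlapped P37Stop for *let-653* and WT batch 1 for *egg-6*, and WT batch 1 overlapped S441L for *sym-1*. P183L stood above every other library for all 9 genes. Separation was common in this mutant, as 47.2% of all genes tested had every P183L library above every WT batch 1 library. The share of all genes with separation from every other group was not counted.

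The differences between the mutants were tested directly. Between P183L and S441L, grown in parallel, all 9 genes were called higher in P183L, where 38.1% of all genes tested were. The log2 fold changes were 4.61 for *noah-1*, 4.26 for *noah-2*, 5.32 for *fbn-1*, 3.93 for *let-653*, 3.68 for *lpr-1*, 3.60 for *lpr-3*, 4.48 for *let-4*, 3.00 for *egg-6* and 4.98 for *sym-1*. These are separate mutagenized strains, with *ajm-1* at 1037 CPM in P183L and 4146 CPM in S441L beside the difference in *rol-6*, so allele and strain cannot be told apart. The effects of P37Stop and S441L, each relative to its own WT, were set against each other in a fit of all 15 libraries, with an adjusted p below 0.05 as the threshold. That fit estimates 1 spread per gene over both experiments, although replicates varied more in the P37Stop experiment. The SE of a difference can thus be smaller than that of 1 of its parts, as for *let-4* (0.17 against 0.29 for P37Stop alone). The SE and adjusted p of these contrasts may therefore overstate their precision. The P37Stop effect was greater for 8 genes, where this held for 23.2% of all genes tested. The difference was largest for *noah-1* (2.42, SE 0.26) and *sym-1* (2.42, SE 0.21) and smallest for *let-653* (0.88, SE 0.22, adjusted p = 0.00382 by edgeR). For *egg-6* the difference was -0.51 (SE 0.20, adjusted p = 0.0594 by edgeR), which passed the threshold in the direction of S441L with DESeq2 (-0.54, adjusted p = 0.0279). The P37Stop effect was smaller than the P183L effect for all 9 genes, where this held for 32.4% of all genes, by -1.97 (*lpr-1*, SE 0.42) to -3.52 (*egg-6*, SE 0.20). For *lpr-1* both contrasts depended on single WT libraries: without WT batch 2 replicate 2 the difference from S441L was 2.36 in place of 1.72 and that from P183L -1.35, and without WT batch 2 replicate 1 they were 1.36 and -2.35. Since P37Stop was grown apart from the missense alleles and each effect rests on a different WT group, allele and experiment cannot be told apart in these 2 contrasts.

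Among the libraries of 1 group, the 9 genes varied least in P183L. The coefficient of variation of the CPM was 11.3 to 33.8% over the genes in P37Stop, 13.8 to 65.0% in WT batch 2 and 1.49 to 14.8% in WT batch 1. For S441L it was 2.06 to 14.2% and for P183L 0.547 to 2.68%. The ranges of the experiments overlap, as *let-653* varied by 14.2% in S441L and 13.8% in WT batch 2. P37Stop replicate 1 was the highest of its group for 7 of the 9 genes and replicate 3 the lowest for 6. WT batch 2 replicate 2 was the highest of its group for 6. *egg-6* ran against this: P37Stop replicate 1 was its lowest library and replicate 3 its highest.

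Over all 15 libraries the log2-CPM of the 9 genes were closely correlated, with Pearson's r from 0.889 to 0.996 over the 36 pairs (median 0.981). These values rest largely on P183L, and the libraries share their groups. Over the 12 libraries without P183L, r ranged from -0.254 to 0.982 with a median of 0.909. *let-653* and *egg-6* stood apart there, with median r of 0.264 and 0.514 to the other genes, while the median of each of the remaining 7 was 0.915 to 0.948. With each group's mean removed, the median over pairs was 0.433, and that of *egg-6* to the others was -0.617.

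Among 13814 other genes with a mean of at least 1 CPM, the profile most like the mean of the 9 over the 15 libraries was that of *K10D3.4* (r = 0.999, and 0.990 without P183L). It was followed by *T09B4.5* (0.996), *daam-1* (0.995), which encodes a formin, *C09F9.2* (0.995) and *fbxc-40* (0.994). Such likeness was common, with r above 0.95 for 971 genes or 7.03%. The genes most like *noah-1* were *dpy-2* (0.997), *mlt-11* (0.996) and *dpy-10* (0.995), of which *dpy-2* and *dpy-10* encode furrow collagens and *mlt-11* a protease inhibitor of the molt. *mlt-11* was also among the 3 genes most like *noah-2* (0.997) and *lpr-1* (0.995). For *lpr-3* they included *lpr-4* (0.997), another lipocalin-related gene. *lpr-3*, *lpr-6*, *lpr-5* and *lpr-4* follow one another on the plus strand of chromosome X between 11057401 and 11066811. Those most like *let-653* were *wts-1* (0.996), *ttyh-1* and *F20G2.3* (both 0.993), and those most like *egg-6* were *scc-1*, *tag-275* and *lem-3* (all 0.995).

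Other genes of the precuticle and the cuticle were counted from lists fixed by name. Like the 9 genes, all lists were chosen with earlier results of these data known, so their counts are not independent evidence. Of all genes tested, 12.7% were called higher in P37Stop, 24.2% in S441L and 40.2% in P183L, and 14.3% lower in WT batch 2 than in WT batch 1. Of 9 other precuticle genes, 6 rose in P37Stop, with log2 fold changes over the list from 2.93 (*mlt-11*) to 0.01 (*pan-1*, adjusted p = 0.974 by edgeR) and a median of 2.00. This list holds *grl-7* and *wrt-10*, which the study also displayed. In S441L 6 of them rose, with a median of 0.72, led by *ram-5* (1.45), and in P183L all 9 did, with a median of 3.49. Between the WT groups 5 of the 9 were lower in WT batch 2, with a median of -1.02. Of 5 other lipocalin-related genes, 4 rose in each mutant, while *lpr-2* had log2 fold changes of -0.13 in P37Stop and -0.21 in S441L, neither a call, and fell in P183L (-2.68). Of the furrow collagens, which shape the annular furrows of the cuticle, 4 of 5 tested rose in P37Stop, led by *dpy-7* (2.68), and 6 of 6 rose in P183L. The 4 tested in S441L had log2 fold changes of 0.06 (*dpy-3*) to 0.26 (*dpy-10*), below the limit. The P37Stop effect exceeded the S441L effect for *dpy-7* by 2.60 (adjusted p = 3.16e-05 by edgeR) and for *dpy-10* by 2.30 (adjusted p = 2.75e-06). As 4 of 5 furrow collagens were lower in WT batch 2 than in WT batch 1 (median -1.23), allele and experiment cannot be told apart here either. Cuticlins, proteins of the insoluble cuticle, rose for 4 of 6 in P37Stop (median 1.56), 5 of 5 in S441L (median 0.95) and 5 of 6 in P183L, where *cut-4* fell (-1.74).

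**Figure D4:**
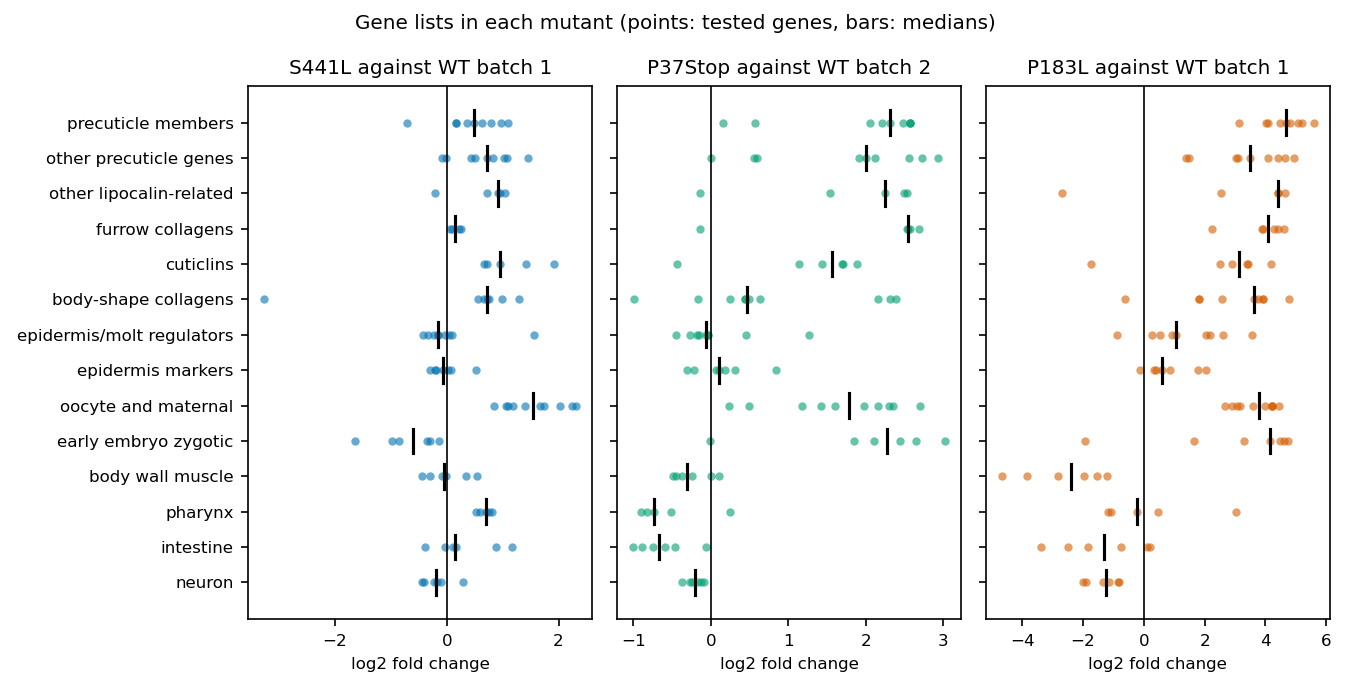
Log2 fold changes of the tested genes of each list in S441L, P37Stop and P183L against their own WT, with a point for each gene and a bar at the list's median (the horizontal ranges differ between panels). The median of the 9 precuticle genes is 0.49, 2.32 and 4.69, and that of the oocyte and maternal list 1.53, 1.78 and 3.8.

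Transcripts of other stages and tissues also differed between mutants and controls, in directions that varied with the list and the mutant. The counts below stand beside the shares of all genes tested. These were 12.7% called higher and 5.9% lower in P37Stop, 24.2% and 15.8% in S441L, and 40.2% and 40.2% in P183L. Of 10 oocyte and maternal genes tested, such as *puf-5* and *mex-5*, 7 rose in P37Stop, 10 in S441L and 10 in P183L, and their summed level was 16.5 to 51.9 CPM in WT batch 2, 70.9 to 177 in P37Stop, 33.1 to 39.2 in WT batch 1, 91.5 to 93.7 in S441L and 563 to 577 in P183L. The list of early embryonic zygotic genes had 1 gene at 0 counts in each WT group. Of those tested, 6 of 7 rose in P183L (median 4.15) and *med-2* fell. In P37Stop 1 of 6 was called higher, yet the median was 2.27, with values from 3.02 (*ceh-51*) to -0.005 (*med-2*). In S441L 2 of 6 fell (median -0.61). The summed level of the zygotic list was 62.0 to 65.6 CPM in P183L, 7.67 to 17.3 in P37Stop and 1.84 to 5.48 in the WT libraries. In P183L all 6 body wall muscle genes fell, with a summed level of 2772 to 2874 CPM against 18755 to 21425 in WT batch 1, and 6 of 6 neuronal genes fell. In P37Stop 4 of 6 intestinal and 4 of 5 pharyngeal genes fell. In S441L, by contrast, all 5 pharyngeal genes rose (median 0.71) and 2 of 6 intestinal genes did, led by *act-5* (1.17). All 5 pharyngeal genes were higher in WT batch 2 than in WT batch 1, where 2864 of all 15408 genes tested were called higher. General epidermal genes, of which *mua-3* rose in P37Stop (0.83), had medians of 0.10 in P37Stop, -0.06 in S441L and 0.60 in P183L. The part of these other transcripts in the precuticle changes was not tested.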

How the data were processed

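RNA-seq libraries of polyadenylated RNA from whole L1 animals (3 biological replicates from separate plates in each of 5 groups) were made with TruSeq kits. For processing, the sources name fastp for read filtering, STAR and Salmon (with ce11) for alignment, Picard for duplicate removal and HTSeq for counting. The deposited table gives expected counts, that is estimated counts of reads for each gene, and they are not scaled. Which route made them and whether strand was used are not given in the sources used here. Of its values 3.70% are not whole numbers, and of those of the 9 genes 6.70%. Counts were rounded. A row without a gene ID, equal to the total of its column, was left out. Library pairs differed by more than sampling noise (chi-square per degree of freedom 3.27 to 1800). Counting error is part of the standard errors, which also hold the spread between replicates.

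The Ensembl annotation of WBcel235 gave names, positions and exon lengths, and matched 46857 gene IDs and left 54 unmatched. Tests used R 4.3.3 and edgeR 4.0.16: filterByExpr (minimum count 10), TMM, glmQLFit and glmQLFTest, with a separate fit for each of 5 comparisons of 2 groups and Benjamini-Hochberg adjustment over all genes tested. Standard errors are the log2 fold change divided by the square root of F. The 2 contrasts of effects used 1 fit of all 15 libraries, which estimates 1 spread per gene over both experiments. CPM in the text are scaled over the 15 libraries, so their ratios can differ slightly from the fitted fold changes. The fits were tested on simulated data with 200 changed genes in each comparison. For P37Stop against WT batch 2, 63 of 100 genes were recovered at a log2 change of 1 in size and 84 of 100 at 2. There were 14 false calls. Recovery was the lowest there of the 5 comparisons, and was 88 and 98 of 100 for P183L against WT batch 1. A gene not called in P37Stop may therefore still have changed. The simulation changed far fewer genes than were called in the data, so its recovery and false calls need not hold for the real fits.

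Replicate numbers were not taken to pair samples. The alternatives were DESeq2 1.42.0, limma 3.58.1 (voom), DESeq2's size factors, upper quartile and total counts scaling, no filter, a filter above 1 TPM in every library, a replicate block, the other or both WT groups as the control, a fit of all libraries, and leaving out each library. The genes named are the 9 genes, *eff-1*, the highest and lowest gene of a counted list, and the genes most like the 9 by Pearson's r (log2-CPM, prior count 2). The 9 genes and all lists were chosen with earlier results of these data known. Promoter sequences were not used here, so a planned search for motifs was not run.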

Additional observations from a re-analysis of the deposited data

Results flagged for a closer look

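Several differences between the mutants passed a test of the difference itself, given here on the log2 scale from the quasi-likelihood test of edgeR, adjusted over all genes. The effect of P37Stop on its own WT exceeded that of S441L by 2.42 for *noah-1*, 1.95 for *noah-2*, 2.13 for *fbn-1*, 0.88 for *let-653*, 1.72 for *lpr-1* (2.36 without WT batch 2 replicate 2), 1.36 for *lpr-3*, 1.28 for *let-4* and 2.42 for *sym-1*. For *let-653* the difference comes from a decrease in S441L and a value that was not called in P37Stop.

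The effect of P37Stop less that of P183L was -2.20 for *noah-1*, -2.33 for *noah-2*, -3.20 for *fbn-1*, -3.07 for *let-653*, -1.97 for *lpr-1* (-1.35 without WT batch 2 replicate 2), -2.26 for *lpr-3*, -3.21 for *let-4*, -3.52 for *egg-6* and -2.57 for *sym-1*. The WT groups differed in 8 of these genes, and allele and experiment cannot be told apart in either set of contrasts. Both sets come from the fit that pools the spread of the experiments, so their precision may be overstated.

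P183L and S441L, grown in parallel, differed by 4.61 for *noah-1*, 4.26 for *noah-2*, 5.32 for *fbn-1*, 3.93 for *let-653*, 3.68 for *lpr-1*, 3.60 for *lpr-3*, 4.48 for *let-4*, 3.00 for *egg-6* and 4.98 for *sym-1*, all higher in P183L. This contrast needs no WT group, but allele and strain cannot be told apart in it.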

How the results depend on the processing

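Over all alternatives, 1039 fold changes of single genes kept their call and direction, 23 gained a call, 10 lost it and 5 changed sign. All 9 genes stayed called in P183L under every alternative run, in a mutant where 40.2% of all genes tested were called higher against WT batch 1. The cause of the changes below was not tested. In P37Stop, 7 genes were called higher against WT batch 2, 2 with both WT groups as the control, and 4 with the filter above 1 TPM, which *fbn-1*, *let-4* and *lpr-1* did not pass. With WT batch 1 as the control 1 gene, *let-653*, was called lower in P37Stop at -0.82, where both WT groups gave -0.45 and leaving out single libraries -0.09 to 0.31. In S441L, 8 genes were called higher and 0 lower against WT batch 2 (*let-653* at 0.19), and with both WT groups 0 were lower and *noah-2* lost its call. Between the WT groups, 5 genes were lower with the 1 TPM filter, and *egg-6* ranged from -0.26 to 0.04 with 1 library left out. For the P37Stop effect against the S441L effect, 5 genes were higher with the 1 TPM filter. There 1 gene, *egg-6*, was called lower with DESeq2, DESeq2's size factors, upper quartile scaling, no filter or the 1 TPM filter, and 0 to 1 with a library left out. With the replicate block, 7 genes were called higher in P37Stop, 4 in S441L and 9 in P183L, and no call of the 9 genes changed. No label says that a number marks a shared culture, and deviations of same-numbered libraries had correlations of -0.10 to 0.099, with 3 of 3 numbers best with their own in P183L against WT batch 1. Over all genes, 2000 were called higher and 931 lower in P37Stop, but 3155 and 362 with total counts, 3557 and 2300 against WT batch 1, and 1264 higher with both WT groups. In S441L 3795 were higher and 2475 lower, but 2239 higher with both WT groups and 1603 lower with total counts.

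The lowest counts, 17 to 54 per WT batch 2 library for *lpr-1*, limit that gene most. The experiments differ in spread between replicates (biological coefficient of variation 0.214 for P37Stop and 0.0738 for S441L). The WT groups differ in most of these genes, so the fold changes in P37Stop and S441L hold for their own control.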

Other observations

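Of 9 regulators of the epidermis and the molt tested, *bed-3* was the 1 called higher in P37Stop (log2 fold change 1.27) and in S441L (1.56). Of all genes tested, 12.7% were called higher in P37Stop and 24.2% in S441L. In P183L 7 were called higher, led again by *bed-3* (3.54), while *elt-3* fell (-0.89), where 40.2% of all genes were called higher and 40.2% lower. *bed-3* encodes a zinc finger protein needed for molting. The median of the list was -0.06 for P37Stop, -0.15 for S441L and 1.05 for P183L. In S441L *grh-1*, encoding the Grainyhead factor, was lowest at -0.42 (adjusted p = 1.41e-06 by edgeR), inside the limit.

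Body-shape collagens differed among themselves. Of 10 tested in P37Stop 3 rose, led by *dpy-17* (2.39), with a median of 0.47. In S441L 3 of 7 rose, led by *sqt-3* (1.29), and *dpy-5* fell (-3.27, adjusted p = 1.96e-07 by edgeR). In P183L 8 of 9 rose, led by *lon-3* (4.76), and *dpy-5* fell (-0.62).

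Markers of the excretory system, whose duct several precuticle proteins line, were not called by edgeR in P37Stop (3 of 6 had an unadjusted p below 0.05), from *exc-4* (0.19) to *grl-2* (-0.62, adjusted p = 0.735 by edgeR). In S441L *grl-2* rose (1.14) and *exc-9* fell (-0.75), and in P183L *grl-2* rose (3.30) and *lin-48* fell (-3.43). Seam markers, of which 0 of 7 were called by edgeR in P37Stop (3 at an unadjusted p below 0.05), had medians of -0.17, -0.16 and -0.20 in P37Stop, S441L and P183L, with called genes in both directions in the latter mutants. In P183L 3 rose, led by *bro-1* (3.64), and 3 fell, with *grd-10* lowest (-3.20). In S441L 2 rose and *ceh-16* fell (-0.66). *grd-13* was the highest of them in S441L (2.89) and was also higher in WT batch 2 than in WT batch 1 (2.74). Of the vitellogenins tested, 2 of 3 rose in P37Stop and 2 of 4 in S441L, at a summed level of 6.04 to 13.9 CPM over the libraries of these mutants and 5.28 to 8.84 CPM over those of both WT groups, and in P183L *vit-1* rose (4.04) and 2 fell. The sperm list had at most 3 genes tested, with *spe-11* called higher in S441L (5.77, a fitted value that depends on the prior count) at a summed list level of 2.68 to 3.82 CPM.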
